A study of Mus musculus with 6 samples.

Results

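Malat1, Neat1, Meg3, Miat, Rian, Mirg, Snhg11, Mir9-3hg and Rmst are known as long non-coding RNAs, transcripts that act without being translated, although GENCODE M21 annotates Snhg11 as protein-coding, and they were taken by symbol: 9 of the 26264 symbols in the files matched, and all 9 passed the filter on low counts that left 14739 genes. They were measured in the basolateral amygdala of male mice, in 3 libraries of chronic restraint stress and 3 of unstressed controls, made from ribosomal RNA-depleted total RNA. The libraries of a group are biological replicates by the design text, which does not say whether each is 1 animal. Restraint stress holds an animal immobile repeatedly; the labels used here give no strain, age or length of treatment. The members were chosen by name with earlier results of these data known, from their CPM in these libraries and, for Mir9-3hg, from its difference between stress and control, so these are given as descriptions.

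Long non-coding RNAs act as transcripts rather than through a protein. Malat1 lies in nuclear speckles, the bodies that store splicing factors, and Neat1 is the scaffold of paraspeckles, bodies that hold RNA-binding proteins. Meg3, Rian and Mirg are read from the maternal chromosome of the imprinted Dlk1-Dio3 domain, where Rian carries small nucleolar RNAs and Mirg carries microRNAs. Miat, also called Gomafu, is a nuclear RNA of neurons that binds splicing factors, Snhg11 is a neuronal host of small nucleolar RNAs, Mir9-3hg is the host transcript of a precursor of miR-9, a brain microRNA of neurogenesis, and Rmst is a neural transcript known to bind SOX2.

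Several of the 9 loci carry small RNAs, and their mature sequences show what a host transcript can give rise to, although reads of these libraries do not measure mature microRNAs. The sequences below are those of the hosted microRNAs to which the results return, from RefSeq on GRCm38.p6, 5′ to 3′, with the seed (bases 2 to 8) in capitals. All lie on the plus strand. Both miR-9 sequences come from the Mir9-3hg locus on chromosome 7, and the same letters are encoded at Mir9-1 on chromosome 3 and Mir9-2 on chromosome 13. The others lie on chromosome 12: miR-770-5p in Meg3, miR-341-3p in Rian, and miR-410-3p, miR-453 and miR-496a-5p in Mirg. Among the mature microRNAs of these loci the last 2 shared a seed.
miR-9-5p: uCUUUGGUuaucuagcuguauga
miR-9-3p: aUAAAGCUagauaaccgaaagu
miR-770-5p: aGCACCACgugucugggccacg
miR-341-3p: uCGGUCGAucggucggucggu
miR-410-3p: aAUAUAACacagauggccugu
miR-453: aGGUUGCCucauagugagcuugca
miR-496a-5p: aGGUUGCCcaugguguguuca

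Promoter sequences were at hand for 7 of the 9 genes, as 9 windows, since Meg3 and Mir9-3hg each had a further annotated start downstream of the one shown. The ones shown are those of Malat1 and Mir9-3hg, whose stress and control libraries did not overlap, and of Meg3, the first gene of the imprinted cluster. Each runs from 250 bases before to 50 bases after the annotated start, from RefSeq on GRCm38.p6, a build older than the mm39 of the files. Capitals mark TGACGTCA, the cAMP response element, which reads the same on both strands, and TATAAA on either strand. The windows are chr12:109540746-109541045 on the plus strand for Meg3, chr7:79499776-79500075 on the plus strand for Mir9-3hg and chr19:5802623-5802922 on the minus strand for Malat1.
Meg3: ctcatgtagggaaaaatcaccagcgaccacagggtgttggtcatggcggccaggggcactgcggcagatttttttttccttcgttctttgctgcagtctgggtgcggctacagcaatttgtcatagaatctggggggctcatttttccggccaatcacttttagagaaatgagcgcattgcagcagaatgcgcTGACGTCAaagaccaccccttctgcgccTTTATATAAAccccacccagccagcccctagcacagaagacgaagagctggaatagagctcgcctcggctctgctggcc
Mir9-3hg: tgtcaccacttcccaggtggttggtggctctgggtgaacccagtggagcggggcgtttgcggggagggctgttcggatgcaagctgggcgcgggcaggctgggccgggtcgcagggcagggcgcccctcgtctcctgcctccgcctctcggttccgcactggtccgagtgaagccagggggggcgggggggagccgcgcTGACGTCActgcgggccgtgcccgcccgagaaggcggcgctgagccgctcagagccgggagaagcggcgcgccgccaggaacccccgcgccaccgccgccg
Malat1: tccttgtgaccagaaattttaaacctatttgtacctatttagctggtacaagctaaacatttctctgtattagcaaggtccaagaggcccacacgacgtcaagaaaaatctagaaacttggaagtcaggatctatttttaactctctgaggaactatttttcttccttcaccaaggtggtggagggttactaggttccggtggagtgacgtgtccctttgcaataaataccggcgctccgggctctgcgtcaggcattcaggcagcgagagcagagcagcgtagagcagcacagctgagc
In the windows shown, TGACGTCA stood at -57 from the start in Meg3 and at -51 in Mir9-3hg, and it was in 588 of all 32851 promoters of the table (1.79%). TATAAA was found in Meg3 on both strands in overlapping letters, first at -29, and in 13.6% of all promoters. The Malat1 window held neither. Nor did the windows that are not shown, those of Miat, Rian, Mirg and Snhg11 and the further ones of Meg3 and Mir9-3hg. The Mir9-3hg window shown was the richest in G and C among the windows of the 7 genes (75.0%, 35 CG pairs, against a median of 52.7% G and C over all promoters), whereas that of Rian held 0 CG pairs and 49.3% G and C. These matches describe letters and say nothing about binding.

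The libraries held 9919111, 9859449 and 10179081 counts in genes in stress 1 to 3 and 9916324, 10233706 and 9870139 in controls 1 to 3. Excitatory and amygdala markers were present in every library, at a summed 4265 to 4923.5 CPM under stress and 3630 to 4754 CPM in controls (9 of 10 higher under stress, median log2 difference 0.13, none past the threshold; CPM is a gene's counts scaled to a common library total). Stress 1 stood apart. The list of striatal and central amygdala genes was lower in 21 of 21, with sums of 582 to 1378 CPM under stress against 1301 to 2424 CPM in controls, and their mean log2 level in stress 1 was -2.21 relative to the control mean, against -0.44 and -0.42 in stress 2 and 3 and 0.53, -0.37 and -0.17 in controls 1 to 3; 1 of these markers was at 0 counts in a stress library. All 18 oligodendrocyte markers were lower, at sums of 2042 to 5618 CPM under stress and 2618 to 5171 CPM in controls, sums that include Enpp2, which choroid plexus also expresses; their mean log2 level was lowest in stress 1, at -0.71. Choroid plexus markers ranged from 149 to 9204 CPM under stress and from 236 to 6802 CPM in controls, with 13 of 14 lower under stress and 1 at 0 in a stress library. Astrocyte, microglia and endothelial markers summed to 6276 to 7179, 495 to 507 and 285 to 302 CPM under stress, and to 6713 to 7323, 490 to 545 and 290 to 364 CPM in controls; 13 of 15, 9 of 13 and 10 of 12 were lower under stress, none past the threshold. The part of these marker differences in the values that follow was not tested beyond the fits given beside them. In tissue RNA, fewer cells of a type and less RNA per cell cannot be told apart.

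Per library the 9 RNAs together took 1.80, 1.72 and 1.63% of the counts in genes in stress 1 to 3, and 1.82, 1.68 and 1.87% in controls 1 to 3 (widest 95% Wilson interval 0.0169 percentage points, counting error only). The groups overlapped, at 1.72 ± 0.0824% under stress and 1.79 ± 0.0963% in controls (SD, n = 3 each). Malat1 alone made up 1.205, 1.24 and 1.18% under stress and 1.32, 1.24 and 1.37% in controls. Without Malat1 the sum was 0.509 ± 0.0743% under stress and 0.482 ± 0.0357% in controls, a difference of the opposite sign (0.0276 against -0.0769 percentage points for all 9). Meg3, Rian and Mirg of the imprinted cluster summed to 0.398, 0.325 and 0.316% under stress and 0.355, 0.307 and 0.333% in controls.

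The name abundant held for 5 of the 9. By CPM, which is not corrected for length, Malat1 ranked 2, Meg3 6, Snhg11 58, Rian 173 and Miat 345 among 14739 tested genes, while Neat1 ranked 4516, Mirg 6856, Rmst 6969 and Mir9-3hg 7646. The median tested gene had 24.2 CPM, about the level of the last 3. Rn7sk, the small nuclear RNA 7SK, was the gene above Malat1.

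Per length, as CPM per kilobase of the merged exons of GENCODE M21, Malat1 stood far above the rest, at 1741 ± 29.8 under stress and 1870 ± 108 in controls (SD, n = 3 each). Meg3 followed at 157 ± 24.5 under stress and 146 ± 11.98 in controls, then Snhg11 at 127 ± 17.5 under stress and 120.1 ± 12.4 in controls. Miat was at 49.4 ± 17.8 under stress and 39.9 ± 6.51 in controls, and Rian at 34.2 ± 2.75 under stress and 34.2 ± 1.04 in controls. The last 4 lay close together. Mir9-3hg was at 5.73 ± 0.0924 under stress and 4.50 ± 0.362 in controls, and Mirg at 3.65 ± 0.405 under stress and 3.93 ± 0.598 in controls. Rmst was at 3.27 ± 0.465 under stress and 3.94 ± 0.379 in controls, and Neat1 at 2.51 ± 0.597 under stress and 2.52 ± 0.181 in controls.

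**Figure D1:**
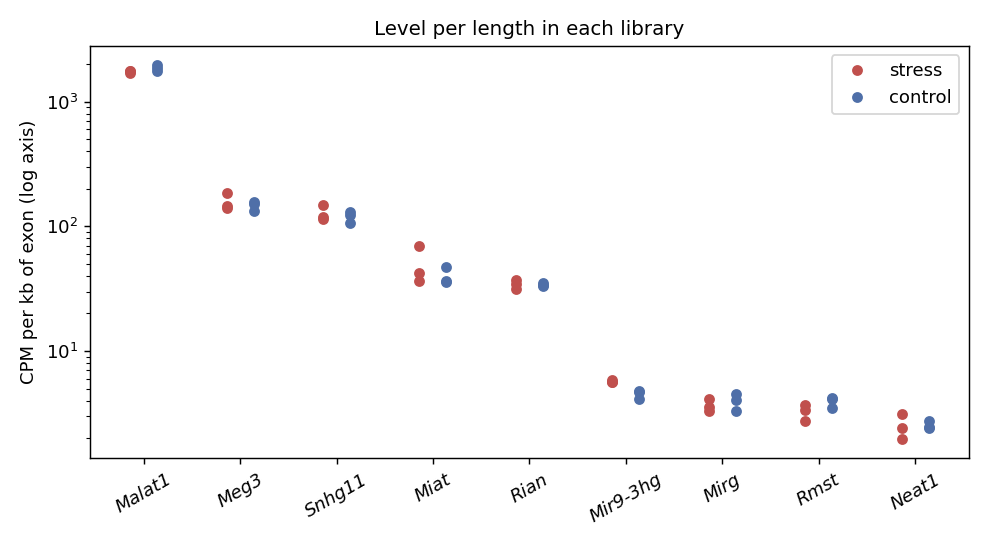
Level per length of the 9 RNAs, in CPM per kilobase of merged GENCODE M21 exons on a log axis, with 1 point per library, stress left of control for each gene. Malat1 lies between 1706 and 1983, Meg3 between 133 and 185, and the 4 lowest genes below 6.

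Across the 6 libraries Malat1 and Meg3, Snhg11 and Miat, and Rian and Mir9-3hg did not overlap, whereas Meg3 and Snhg11, Miat and Rian, and each neighbouring pair among the last 4 did. The order still held within every library for all neighbours except Mirg and Rmst, of which Mirg was the higher in 3 of 6 libraries. The exon length decides the place of Neat1. It has a long transcript of 20771 bases and a short one of 3004 bases at the same locus, and if all its reads came from the short one it would be at 17.3 ± 4.13 under stress and 17.5 ± 1.25 in controls. The counts do not separate the forms. The places of the other RNAs also rest on merged exon lengths, such as 18089 bases for Meg3 and 18234 for Rian. For these other lengths were not tried.

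The comparison of stress with control asked whether any of these RNAs changed. In edgeR's quasi-likelihood test no gene passed an adjusted p of 0.05 over all 14739 tested (0 called, 0%), and so none of the 9; the adjusted p was 0.997 to 0.999 for the 8 RNAs other than Mir9-3hg. Before adjustment, 496 genes (3.37% of those tested) had a p under 0.05, 1.33% higher and 2.04% lower under stress. At the adjusted threshold DESeq2 called 2 genes, edgeR's likelihood ratio test 4 and limma-voom 0, none of them among the 9. By fitted fold change 5 of the 9 were higher and 4 lower, with a median log2 difference of 0.0027 beside -0.0044 over all tested genes. The libraries did not overlap between groups for 2 of 9, Mir9-3hg (higher) and Malat1 (lower), beside 8.28% of all tested genes (3.80% higher, 4.48% lower); nothing is read from that count, since the choice of members was made with this contrast known.

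**Figure D2:**
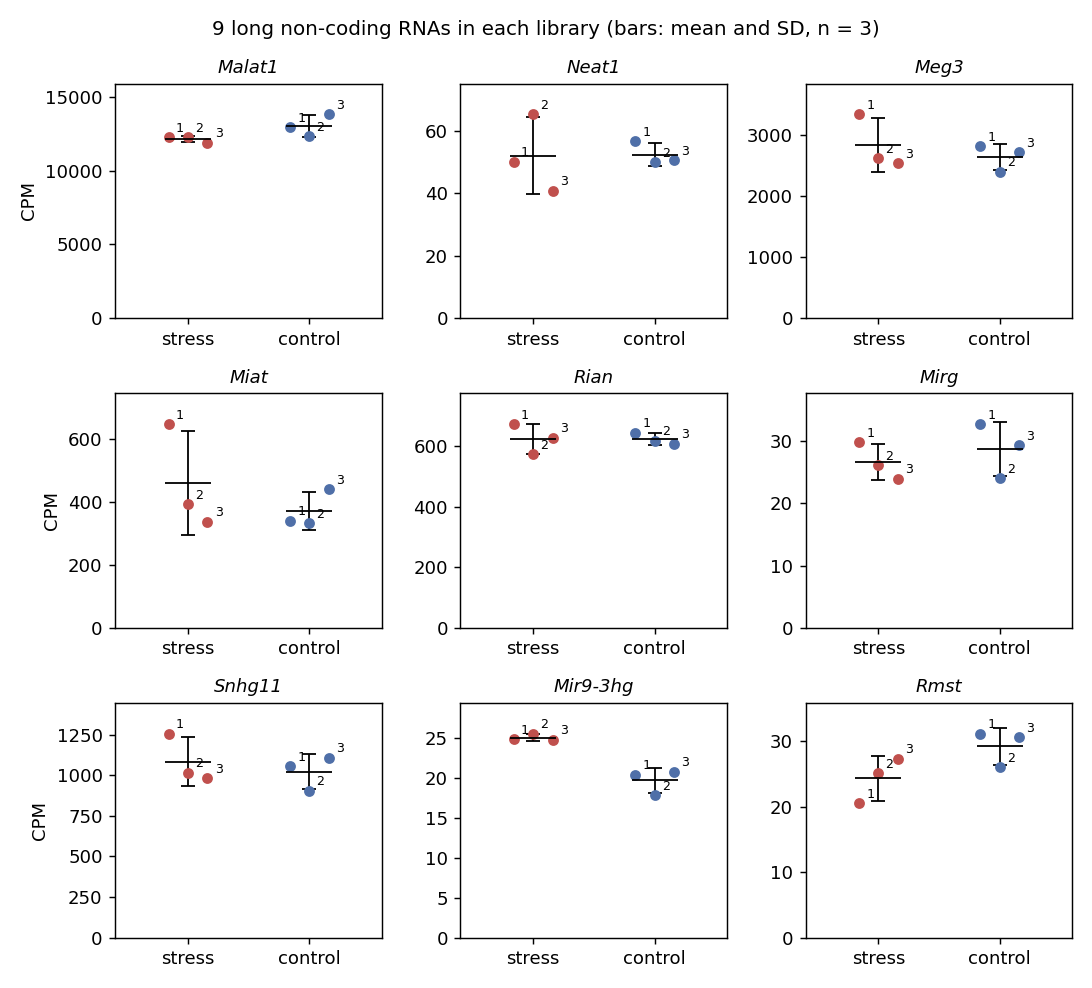
CPM of each RNA in every library, stress left and control right, with the replicate number beside each point and bars for mean and SD (n = 3); every axis starts at 0. Mir9-3hg has its 3 stress libraries between 24.7 and 25.5 CPM, above all controls, and Miat has 1 high library, stress 1 at 648 CPM.

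Among the RNAs of nuclear bodies, Malat1 had 12269, 12281 and 11914 CPM in stress 1 to 3, against 12977, 12342 and 13848 CPM in controls 1 to 3. Every stress library lay below every control library, but the gap between stress 2 and control 2 was 60.6 CPM. The log2 fold change was -0.10 ± 0.07 (SE), with a 95% interval from -0.27 to 0.07, which includes 0, and the adjusted p was 0.997 in edgeR's test. With no filter on low counts the Malat1 groups overlapped. Set against 7SK, an abundant nuclear RNA of the same libraries, the ratio of Malat1 to Rn7sk counts was 0.962 ± 0.0559 under stress and 1.02 ± 0.115 in controls, and the groups overlapped. Reads at mascRNA, the tRNA-like RNA cut from the Malat1 end, were few, with 16, 13 and 9 counts under stress and 12, 10 and 9 in controls.

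Neat1 had 50.1, 65.4 and 40.8 CPM under stress, against 56.8, 49.9 and 50.6 CPM in controls. Stress libraries held both the highest and the lowest value, and the SD was 12.4 CPM under stress and 3.76 CPM in controls. The log2 fold change was -0.01 ± 0.16 (95% interval -0.40 to 0.38). Its sign changed in 7 of 20 alternative fits, among them 0.018 without stress 1 and 0.17 with the oligodendrocyte marker level as a covariate.

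The proteins of these bodies were read from lists. Of 24 paraspeckle protein genes 11 were higher and 13 lower, 0 passed the threshold, and the median log2 difference was -0.0041. Hnrnph3 was at -0.22 ± 0.10, the cold-inducible Rbm3 at 0.29 ± 0.16 and Matr3, the most abundant, at -0.01 ± 0.07. Of 27 nuclear speckle genes 15 were higher and 12 lower, with 0 past the threshold and a median of 0.0025; the splicing factor Srsf7 was at -0.14 ± 0.08, Rnps1 at 0.17 ± 0.09 and the speckle scaffold Srrm2 at 0.14 ± 0.11.

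At the imprinted cluster Meg3 had 3349, 2628 and 2542 CPM under stress, against 2820, 2405 and 2721 CPM in controls. Stress 1 was the highest of the 6 libraries and control 2 the lowest, and the groups overlapped. The log2 fold change was 0.10 ± 0.12 (95% interval -0.17 to 0.37), and without stress 1 it was -0.035. Rian had 673, 572 and 627 CPM under stress, against 644, 617 and 608 CPM in controls. It was the steadiest of the 9 with Malat1, with a highest library 1.17 times the lowest, and a log2 fold change of 0.0027 ± 0.08 (-0.17 to 0.18). Mirg had 29.8, 26.1 and 23.9 CPM under stress, against 32.7, 24.05 and 29.3 CPM in controls, a log2 fold change of -0.11 ± 0.13 (-0.41 to 0.20). Without control 1, its highest library, the Mirg difference was -0.0021.

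Ratios within a library, in which the scaling cancels, were taken after the values had been seen. There were 112, 101 and 106 Meg3 counts per Mirg count in stress 1 to 3, against 86.2, 100 and 92.8 in controls, where the groups did not overlap by a narrow margin (100.75 against 100.02). Meg3 per Rian was 4.54 ± 0.465 under stress and 4.25 ± 0.310 in controls, and Rian per Mirg 23.6 ± 2.29 under stress and 22.02 ± 3.19 in controls, with groups that overlapped. Of 6 such ratios the first was the only one with separate groups.

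Dlk1, Rtl1 and Dio3, the protein-coding genes that the domain expresses from the paternal chromosome, were low, below the median tested gene of 24.2 CPM. Rtl1, a retrotransposon-derived gene with an antisense transcript on the maternal chromosome that these counts may not separate, had 2, 15 and 10 counts under stress, against 20, 27 and 14 in controls (log2 fold change -1.14 ± 0.52, 95% interval -2.33 to 0.05). Dlk1, a Notch pathway ligand, was at 5.998 ± 2.35 CPM under stress and 5.71 ± 1.93 CPM in controls, and Dio3, which inactivates thyroid hormone, at 2.697 ± 0.998 CPM under stress and 2.40 ± 1.14 CPM in controls. The most abundant gene of the list outside the cluster, Begain, was at 58.3 ± 5.61 CPM under stress and 61.9 ± 3.47 CPM in controls, a log2 fold change of -0.09 ± 0.09. Of 9 tested genes of the domain, Meg3, Rian and Mirg included, 5 were higher, 4 lower and 0 past the threshold.

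The small RNAs inside these loci have rows of their own, which are not a separate readout where their reads come from the host transcript. RefSeq places 32 annotated small RNAs within 7 of the 9 loci, and the files hold 26 of them as rows at 6 loci, of which 21 were tested: 10 were higher and 11 lower under stress, and none passed the threshold (adjusted p at least 0.997, edgeR). Reads at a hairpin can come from the host transcript, and the strand setting of the counting is not given. Mir770 and Mir1906-1 in Meg3 were the highest, together 65.2, 47.4 and 46.2 CPM under stress, against 57.2, 45.4 and 56.7 CPM in controls. As for Meg3 itself, their sum was highest in stress 1 and lowest in control 2, although Mir770 alone was lowest in stress 3.

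The 10 hairpins of Mirg summed to 19.5, 14.8 and 14.9 CPM under stress, against 20.8, 16.1 and 16.7 CPM in controls. Control 1 and stress 1 were the highest, as for Mirg. The 7 small nucleolar RNA rows of Rian summed to 32.1, 29.4 and 30.4 CPM under stress, against 32.4, 31.7 and 31.1 CPM in controls, led by AF357359 at 13.97 ± 1.77 CPM under stress and 13.9 ± 0.651 CPM in controls. Among the 21 tested rows, 2 had groups that did not overlap, beside 8.28% of all tested genes. Mir410 of Mirg had 14, 13 and 10 counts under stress and 20, 15 and 16 in controls (log2 fold change -0.44 ± 0.30, 95% interval -1.13 to 0.25). Mir341 of Rian had 40, 28 and 29 counts under stress and 25, 27 and 22 in controls (0.41 ± 0.24, -0.13 to 0.96). Mir453 and Mir496a, whose 5′ products share the seed shown above, were at -0.0050 ± 0.26 and 0.05 ± 0.33.

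Of the neuronal transcripts, Miat had 648, 393 and 337 CPM under stress, against 341, 332 and 441 CPM in controls. Stress 1 was 1.95 times the lowest library, the widest range among the 9, and the other stress libraries lay within the controls. The log2 fold change was 0.31 ± 0.27 (95% interval -0.36 to 0.97), without stress 1 it was -0.023, and with the striatal marker level as a covariate it was -0.17. Snhg11 had 1255, 1016 and 982 CPM under stress, against 1057, 905 and 1108 CPM in controls, a log2 fold change of 0.08 ± 0.12 (-0.18 to 0.35) that was -0.034 without stress 1. Stress 1 was the highest library for 4 of the 9, Meg3, Miat, Rian and Snhg11, as it was for 22.6% of all tested genes. It was also the library with the lowest striatal and oligodendrocyte marker levels, as given above. Its mean log2 level of excitatory neuron markers was the highest, at 0.33 relative to the control mean. That level was 0.01 and 0.03 in stress 2 and 3 and -0.22, -0.01 and 0.23 in controls 1 to 3. By summed CPM of these markers stress 3 was the highest, at 4923.5, beside 4763 in stress 1 and 4754 in control 3. Control 2 was the lowest library for 4 of the 9, as it was for 14.5% of all tested genes. The share of reads in no gene was highest in stress 1, at 57.4%, and lowest in control 2, at 53.0%. Whether these differences between libraries bear on the levels was not tested.

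**Figure D3:**
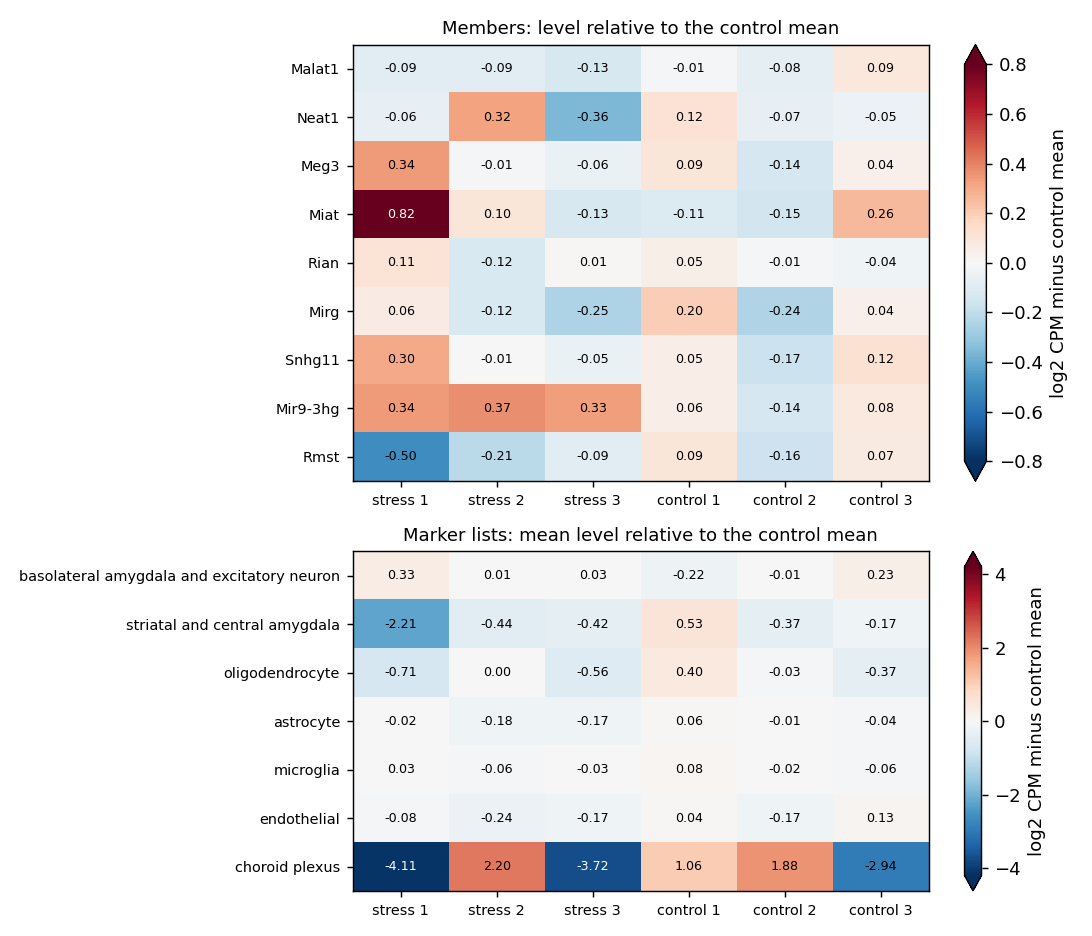
Log2 CPM relative to the control mean in each library, stress columns left of control columns, for the 9 RNAs (upper panel) and for the mean of each marker list (lower panel); the color scales differ between panels. Stress 1 stands out at 0.82 for Miat and -0.50 for Rmst, and at -2.21 for striatal markers.

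Among splicing factors and other RNA-binding proteins, partners of such RNAs, 9 of 13 tested genes were higher and 4 lower. The median log2 difference was 0.07, and 0 passed the threshold. That median was 0.015 with the striatal and 0.010 with the oligodendrocyte marker level as a covariate. It ran from 0.037 to 0.11 with each library left out. Nova1, a neuronal splicing regulator, was at -0.27 ± 0.16, Srsf1 at -0.11 ± 0.07 and Celf2, the most abundant, at 0.16 ± 0.11.

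Rmst had 20.5, 25.1 and 27.3 CPM under stress, against 31.1, 25.99 and 30.6 CPM in controls. The groups overlapped through stress 3 and control 2, and stress 1 was the lowest of all. The log2 fold change was -0.26 ± 0.13 (95% interval -0.55 to 0.02). It was -0.16 without stress 1, -0.11 without stress 1 and control 1, and -0.064 with the striatal marker level as a covariate, while without stress 3 or control 2 the groups no longer overlapped (-0.36 and -0.33). Its hosted microRNA row, Mir1251, held 17 counts in all libraries together.

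Mir9-3hg had 24.8, 25.5 and 24.7 CPM under stress, against 20.4, 17.8 and 20.7 CPM in controls. All stress libraries lay above all controls, and the spread under stress was small, with an SD of 0.403 CPM, against 1.58 CPM in controls. The log2 fold change was 0.35 ± 0.09 (95% interval 0.14 to 0.56), from 242, 253 and 249 counts under stress and 205, 184 and 203 in controls. These values and the interval are a description and not a test, because an earlier result of this contrast had put Mir9-3hg on the list. The difference was 0.29 to 0.39 over the 20 alternative fits, 0.35 without stress 1 and 0.38 with the striatal marker level as a covariate, from the same libraries that led to its choice.

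**Figure D4:**
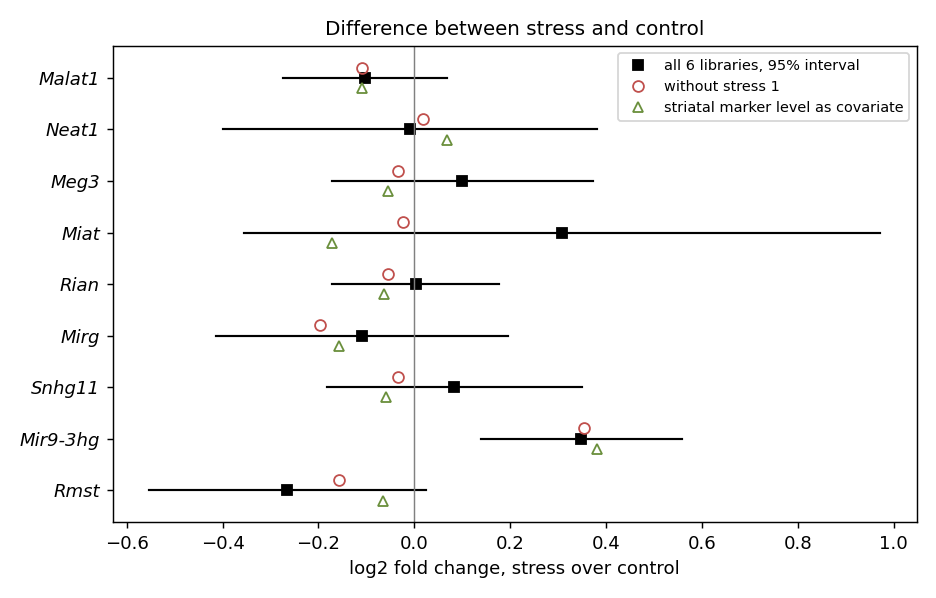
Log2 fold change of stress over control for each RNA (squares) with its 95% interval from all 6 libraries, and the values without stress 1 (circles) and with the striatal marker level as a covariate (triangles). Meg3, Miat, Rian and Snhg11 lie above 0 with all libraries and below 0 in both other fits, while Mir9-3hg stays near 0.35.

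The same miR-9 is encoded at 2 further loci, whose rows were looked up after these values had been seen. The hairpin Mir9-2 had 28, 22 and 19 counts under stress, against 16, 13 and 13 in controls, with groups that did not overlap (log2 fold change 0.73 ± 0.28, 95% interval 0.08 to 1.38). C130071C03Rik, the transcript that spans it, had 125, 110 and 109 CPM under stress, against 98.6, 107 and 99.2 CPM in controls, also without overlap (0.18 ± 0.08, 0.0014 to 0.35). Mir9-1 had 20, 15 and 29 counts under stress, against 17, 17 and 16 in controls, and Gm3764, which spans it, 53.3, 37.3 and 36.6 CPM under stress, against 38.1, 33.6 and 33.2 CPM in controls. The groups overlapped for both, with log2 fold changes of 0.37 ± 0.30 and 0.28 ± 0.15. The hairpin Mir9-3 inside Mir9-3hg had 0, 1 and 0 counts under stress and 1, 0 and 2 in controls. The adjusted p in edgeR's test was 0.997 for each of Mir9-2, C130071C03Rik, Mir9-1 and Gm3764, and separate groups were found for 8.28% of all tested genes.

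**Figure D5:**
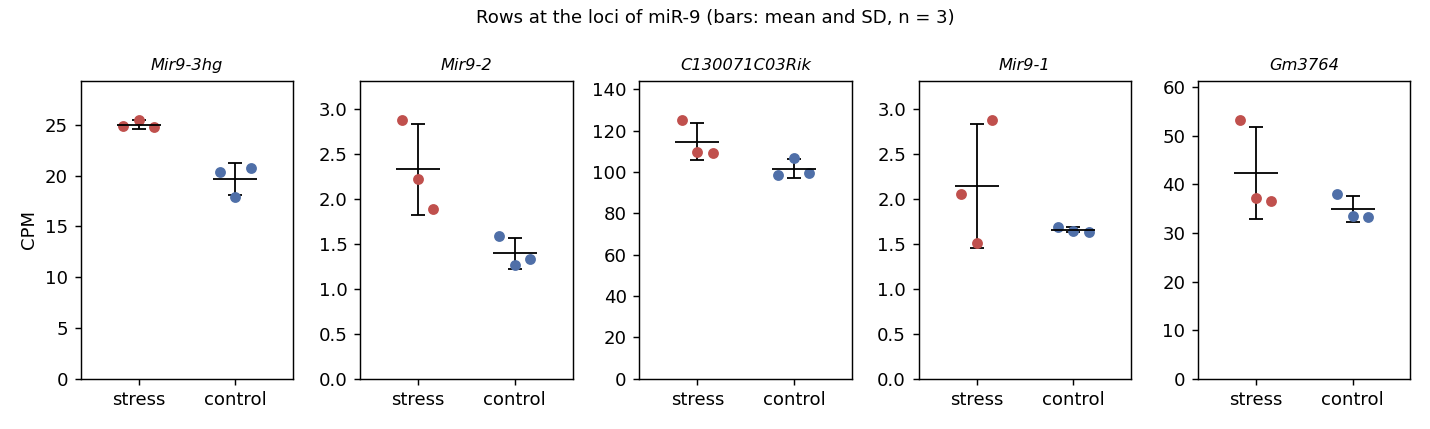
CPM at the loci of miR-9 in each library, stress left and control right, for Mir9-3hg, the hairpin Mir9-2 with the transcript that spans it, C130071C03Rik, and the hairpin Mir9-1 with the transcript that spans it, Gm3764; bars give mean and SD (n = 3) and axes start at 0. Stress means are above control means in all 5 panels, and the groups are separate in the first 3. The hairpin Mir9-3, with 4 counts over all libraries and a lower mean under stress, is not shown. Reads at a hairpin can come from the transcript that spans it.

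The machinery that turns such precursors into microRNAs showed no gene past the threshold. Of 13 tested genes 10 were higher and 3 lower, with a median log2 difference of 0.01. That median ran from -0.00063 to 0.052 with each library left out. Tarbp2, a partner of Dicer, was at 0.40 ± 0.20, Ago4 at -0.16 ± 0.09 and Tnrc6b at 0.11 ± 0.09.

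Beside the 9, a list of other non-coding RNAs held 59 names, of which 50 were in the files and 40 were tested. Under stress 22 were higher and 18 lower, 0 passed the threshold and the median log2 difference was 0.02. Snhg1, a host of small nucleolar RNAs, had 7.80, 6.45 and 7.55 CPM under stress, against 10.8, 11.3 and 9.20 CPM in controls (-0.53 ± 0.15), and Zfas1 11.9, 12.99 and 11.7 CPM under stress, against 10.8, 10.2 and 8.79 CPM in controls (0.30 ± 0.13). The most abundant, the RNase P RNA Rpph1, was at -0.06 ± 0.09. Groups did not overlap for 5 higher and 2 lower genes of the 40, beside 3.80% of all tested genes higher and 4.48% lower.

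For each of the 9 the genes with the most similar pattern were found by the root mean square distance between centred log2 CPM profiles over 6 libraries, among 10246 other genes of at least 10 CPM. Among the 9 themselves Meg3 and Snhg11 were the closest pair, at a distance of 0.0421, beside an own deviation of 0.151 for Meg3 and 0.147 for Snhg11. Over all genes Malat1 was closest to Hnrnpa1 (0.0193) and Camta1 (0.0209), Meg3 to Alg6 (0.0324) and Eml2 (0.0341), and Snhg11 to Adnp2 (0.0259) and to the non-coding RNA Ftx (0.0309). Miat was closest to Pex5l (0.0459) and Etl4 (0.0543), Mir9-3hg to Znhit2 (0.0383) and L3mbtl1 (0.0451), and Rmst to Gm46430 (0.0453) and Epb41 (0.0525). The nearest genes were Lima1 (0.0517) and Tex9 (0.0524) for Neat1, Ctbs (0.0174) and Uqcc1 (0.0186) for Rian, and Zfp560 (0.0291) and Mbip (0.0326) for Mirg. With so many candidates and 6 libraries, close profiles are a description only.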

How the data were processed

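Per the labels' protocols, libraries were stranded and depleted of ribosomal RNA. The files deposited hold unnormalized read counts for each symbol, with libraries kept separate. The submitters' processing notes list edgeR 3.42.4, HTSeq 0.13.5, STAR 2.7.7a, FastQC 0.12.1 and build mm39, with no role for any; strand setting and annotation: not given in the sources used here, and antisense overlap may not be separated. Reads in no gene (53.0 to 57.4% of reads), in more than 1 place (6.97 to 8.16%) and ambiguous (0.162 to 0.194%) were left out of library sizes. Depth limits rows of few counts. No pair of replicates agreed within sampling noise (lowest chi-square per gene 4.41).

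The analysis used edgeR 4.0.16 under R 4.3.3: filterByExpr (minimum count 10, minimum total 15), TMM factors (0.983 to 1.02), and the robust quasi-likelihood F test of stress against control with Benjamini-Hochberg adjustment over 14739 genes at 0.05. Log2 levels used a prior count of 2. An SE is the size of the log2 fold change divided by the root of its F value; the biological coefficient of variation was 14.3%. DESeq2 1.42.0 and limma 3.58.1 served as alternatives. Members and lists were chosen with earlier results of these data known; of each other gene list the text names the 2 genes of smallest unadjusted p and the most abundant one, with Rn7sk, Dlk1, Rtl1, Dio3 and, for each member, the 2 genes nearest in profile; marker lists are given as sums. Alternatives changed the scaling, the filter, the test, a covariate for marker levels, or left out libraries. Exon lengths are of GENCODE M21 and loci of RefSeq on GRCm38.p6, both of another build than the files.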

Additional observations from a re-analysis of the deposited data

How the results depend on the processing

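Across the alternatives 0 of the 9 RNAs passed the threshold, a description for Mir9-3hg. The count over all genes was 4 with edgeR's likelihood ratio test, 2 with DESeq2 and 0 to 1 when each library was left out in turn (1 without control 3). RNAs with separate groups numbered 1 with no filter on low counts, where Malat1 dropped out, 1 when Malat1 and Rn7sk were left out by construction, and 2 to 3 with each library left out. The share difference was 0.0276 percentage points without Malat1 and -0.131 to -0.0358 with each library left out. Malat1, Mirg, Rmst and Mir9-3hg kept their sign in every alternative. The sign turned for Rian with total counts alone (-0.016), and with the striatal (-0.063), oligodendrocyte (-0.037) and choroid plexus (-0.031) covariates. It turned for Neat1 with the same covariates (0.068, 0.17 and 0.082), and for Meg3 (-0.055), Miat (-0.17) and Snhg11 (-0.058) with the striatal one. Without stress 1 and control 1 together it turned for Neat1 (0.079), Miat (-0.081), Rian (-0.030) and Snhg11 (-0.011). With each library left out, log2 values ran from -0.20 to 0.14 for Neat1, -0.035 to 0.17 for Meg3, -0.023 to 0.49 for Miat, -0.054 to 0.066 for Rian and -0.034 to 0.15 for Snhg11. The cause was not tested. Same-numbered stress and control libraries did not deviate together in every pair (correlations -0.32, 0.53 and 0.28 over genes), so the numbers were not read as pairs; the fit with the replicate block called 0 genes and gave Mir9-3hg 0.35 and Rmst -0.27.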
